A study of Mus musculus with 12 samples.

Results

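Mouse fibroblasts that received transfected DNA together with AOA and Asp were compared with the same cells that received the DNA alone, to describe what stayed different when both compounds were present. The comparison took every library that the labels place in the HT-DNA+AOA+Asp and HT-DNA groups, which was 6 of the 12 libraries in the series. It was run over all 14694 genes that passed a filter on low counts. The cells were L929, an established mouse fibroblast line with the genotype WT, grown in 6-well plates. HT-DNA was transfected with Lipofectamine 2000 for 6 h at a dose given as 0.5, with a garbled unit that was read as µg per ml.

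The HT-DNA+AOA+Asp group received 0.5 mM AOA from 1 h before the DNA and 20 mM Asp in addition to it. The HT-DNA+AOA group received the same AOA and DNA without Asp, the HT-DNA group received the DNA with neither compound, and the mock group had no HT-DNA. Each group held 3 libraries, and no source says whether they came from separate cultures. The p-values therefore reflect only how far these libraries scatter, which may be technical scatter. No group with AOA alone, Asp alone, or HT-DNA with Asp but no AOA was analysed here. The HT-DNA+AOA group shows AOA without Asp, and the effect of Asp without AOA cannot be told from these groups. Whether mock cells got the transfection reagent is not stated. The compounds are given by short names only, which commonly stand for aminooxyacetate (AOA) and aspartate (Asp).

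As background, aminooxyacetate blocks aminotransferases, enzymes that move amino groups between amino acids and keto acids with the cofactor pyridoxal phosphate. The aspartate aminotransferases Got1 and Got2 are among them, and they make aspartate and run the malate-aspartate shuttle that carries reducing equivalents into mitochondria. Aspartate is in turn a building block of nucleotides, asparagine and proteins. Cells sense DNA in the cytosol with cGAS and STING, which switch on interferon-stimulated genes and inflammatory genes. Amino acid shortage is read by the kinase GCN2 and answered by the transcription factor ATF4.

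Depth was 20466001 to 24380878 estimated counts a library with both compounds, against 19944571 to 26404043 with HT-DNA alone. The first 2 principal components, with 45.9% and 14.4% of the variance, placed both groups close together. The third, with 8.22%, put the HT-DNA+AOA+Asp libraries at 16.8 to 22.8 and the HT-DNA libraries at -22.8 to -11.2. Of 11 fibroblast markers, 8 passed the filter, among them Vim at 3152 ± 45.02 CPM with both compounds and 3624 ± 188 CPM with HT-DNA alone (SD, n = 3 each). Of 7 macrophage and leukocyte markers 3 passed, and Cd68, a lysosomal membrane protein that other cells also carry, made up nearly all of their summed level of 245 to 256 CPM with both compounds and 246 to 253 CPM with HT-DNA alone. Ptprc, the pan-leukocyte marker, had 3 counts and Adgre1 none in the 12 libraries, and the endothelial and epithelial lists summed to at most 3.14 CPM in these 6 libraries.

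Across the transcriptome the remaining differences were many and small. By edgeR's quasi-likelihood test, 2719 of 14694 genes (18.5%) were called at an adjusted p under 0.05. Of these, 1522 (10.4% of all genes tested) were higher and 1197 (8.15%) were lower with both compounds than with HT-DNA alone. The median absolute log2 fold change of the called genes was 0.28, and 89.2% of them changed by less than 1.5-fold. At least 2-fold changes were seen in 52 higher genes (0.354%) and 31 lower genes (0.211%), and 68 of these 83 had a mean under 5 CPM in the higher group. A test against a fold of 1.2 called 142 genes, 100 higher and 42 lower. In such bulk libraries a change in the share of a kind of cell and a change in its RNA per cell cannot be told apart. The CPM of the 2 groups did not overlap in 5487 genes (37.3%). Non-overlap was a condition for naming many of the genes below, so for them it is no separate support. The total of 2719 calls was 2001, 1802 and 1728 without HT-DNA+AOA+Asp replicates 1, 2 and 3. It was 1712 and 1689 without HT-DNA replicates 1 and 2, but rose to 2889 without HT-DNA replicate 3.

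**Figure D1:**
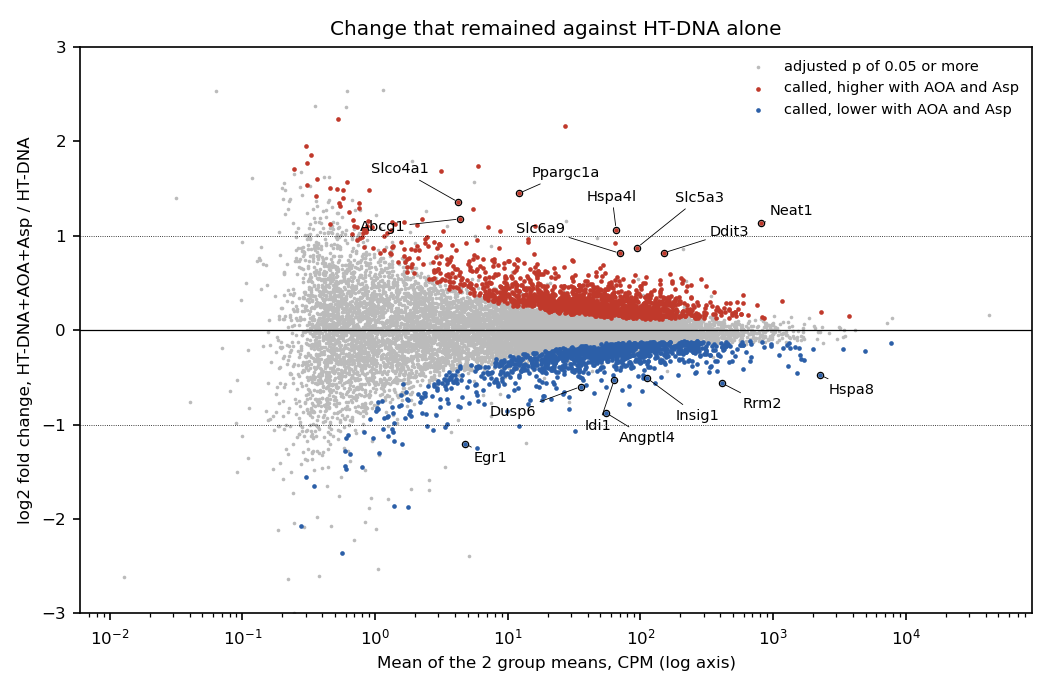
Each point is a gene, with the mean of the 2 group means in CPM on a log axis and the log2 fold change of HT-DNA+AOA+Asp over HT-DNA on the vertical axis. Red and blue points were called higher and lower (adjusted p under 0.05), dotted lines mark 2-fold, and 11 genes beyond a log2 fold change of 3 in either direction, 3 of them called, lie outside the axis. Most called genes lie between the dotted lines, and the labelled genes beyond them include Ppargc1a at 1.45 and Egr1 at -1.20.

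Among the 15 genes with a called change of at least 2-fold and 5 CPM or more, 11 were higher and 4 lower. Ppargc1a, which encodes the transcriptional coactivator PGC-1alpha of mitochondrial and oxidative genes, had 18.2, 19.2 and 15.8 CPM with HT-DNA, AOA and Asp, against 5.78, 6.69 and 7.05 CPM with HT-DNA alone. Every library with both compounds lay above every HT-DNA library (edgeR log2 fold change 1.45 ± 0.11 SE, adjusted p = 2.63e-08). It had 8.77, 7.22 and 6.68 CPM with HT-DNA and AOA and 13.4, 14.5 and 12.9 CPM in mock cells, so the HT-DNA+AOA+Asp libraries were also above all of those. Slco4a1, an organic anion transporter that carries thyroid hormone, had 5.38, 6.39 and 6.53 CPM with both compounds and 2.74, 1.92 and 2.50 CPM with HT-DNA alone (edgeR log2 fold change 1.36 ± 0.17 SE, adjusted p = 1.84e-05). The hairpin entry Mir133a-2, 104 bases long, had 10.3, 9.19 and 8.25 CPM with both compounds and 3.19, 2.69 and 2.30 CPM with HT-DNA alone (edgeR log2 fold change 1.74 ± 0.14 SE, adjusted p = 7.02e-08). Neither gene's groups overlapped, and mock levels were higher still, at 9.28, 9.56 and 12.1 CPM for Slco4a1 and 14.3, 14.3 and 15.3 CPM for Mir133a-2. In RefSeq's GRCm38.p6 annotation Mir133a-2 lies inside the noncoding host gene Mir1a-1hg on chromosome 2, and Slco4a1 is the next gene. Reads of the hairpin and of an overlapping host transcript cannot be told apart.

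The largest called rise at 5 CPM or more was that of MSTRG.12267, an assembled locus that the files do not pair with a gene name and that was singled out after its values were seen. It had 43.3, 44.1 and 44.95 CPM with both compounds and 8.60, 10.2 and 10.95 CPM with HT-DNA alone, with no overlap (edgeR log2 fold change 2.16 ± 0.10 SE, adjusted p = 8.28e-11). Neat1, the noncoding RNA scaffold of nuclear paraspeckles, had 1129, 1071 and 1166 CPM with both compounds and 466, 513 and 558 CPM with HT-DNA alone (edgeR log2 fold change 1.13 ± 0.15 SE, adjusted p = 0.00117). Its HT-DNA+AOA level, 1321, 1193 and 1586 CPM, was not called different from that with both compounds (edgeR adjusted p = 0.131). Mock cells had 1338.5, 1295 and 954 CPM of Neat1, also above HT-DNA alone. Ndrg4, of the NDRG family, had 9.45, 10.1 and 9.31 CPM with both compounds and 4.41, 4.31 and 4.85 CPM with HT-DNA alone (edgeR log2 fold change 1.09 ± 0.13 SE, adjusted p = 1.41e-05). In mock cells it had 12.9, 12.4 and 11.7 CPM. These 3 genes each kept their groups apart. Zfp628, a zinc finger protein, rose (edgeR log2 fold change 1.05 ± 0.25 SE, adjusted p = 0.016), and so did Prr14l (edgeR log2 fold change 1.28 ± 0.31 SE, adjusted p = 0.0174). Both calls were lost when certain single libraries were left out. Across the omissions the log2 fold changes ran from 0.87 to 1.48 for Zfp628 and from 1.14 to 1.45 for Prr14l. Zfp628 had an adjusted p of 0.0539 without HT-DNA+AOA+Asp replicate 1 and 0.0634 without HT-DNA replicate 1. Prr14l had 0.053 and 0.0567 without HT-DNA+AOA+Asp replicates 1 and 2, and 0.0712 and 0.0666 without HT-DNA replicates 1 and 2. Further named rises under 2-fold were the mitochondrial carrier Slc25a27 (0.87), the pseudogene Pisd-ps1 (0.93) and Gadd45a, a growth arrest gene induced by DNA damage and other stress (0.93), all on the log2 scale. Gadd45a had 90.8, 79.1 and 82.3 CPM with both compounds, which overlapped with mock cells at 83.7, 81.3 and 91.5 CPM.

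**Figure D2:**
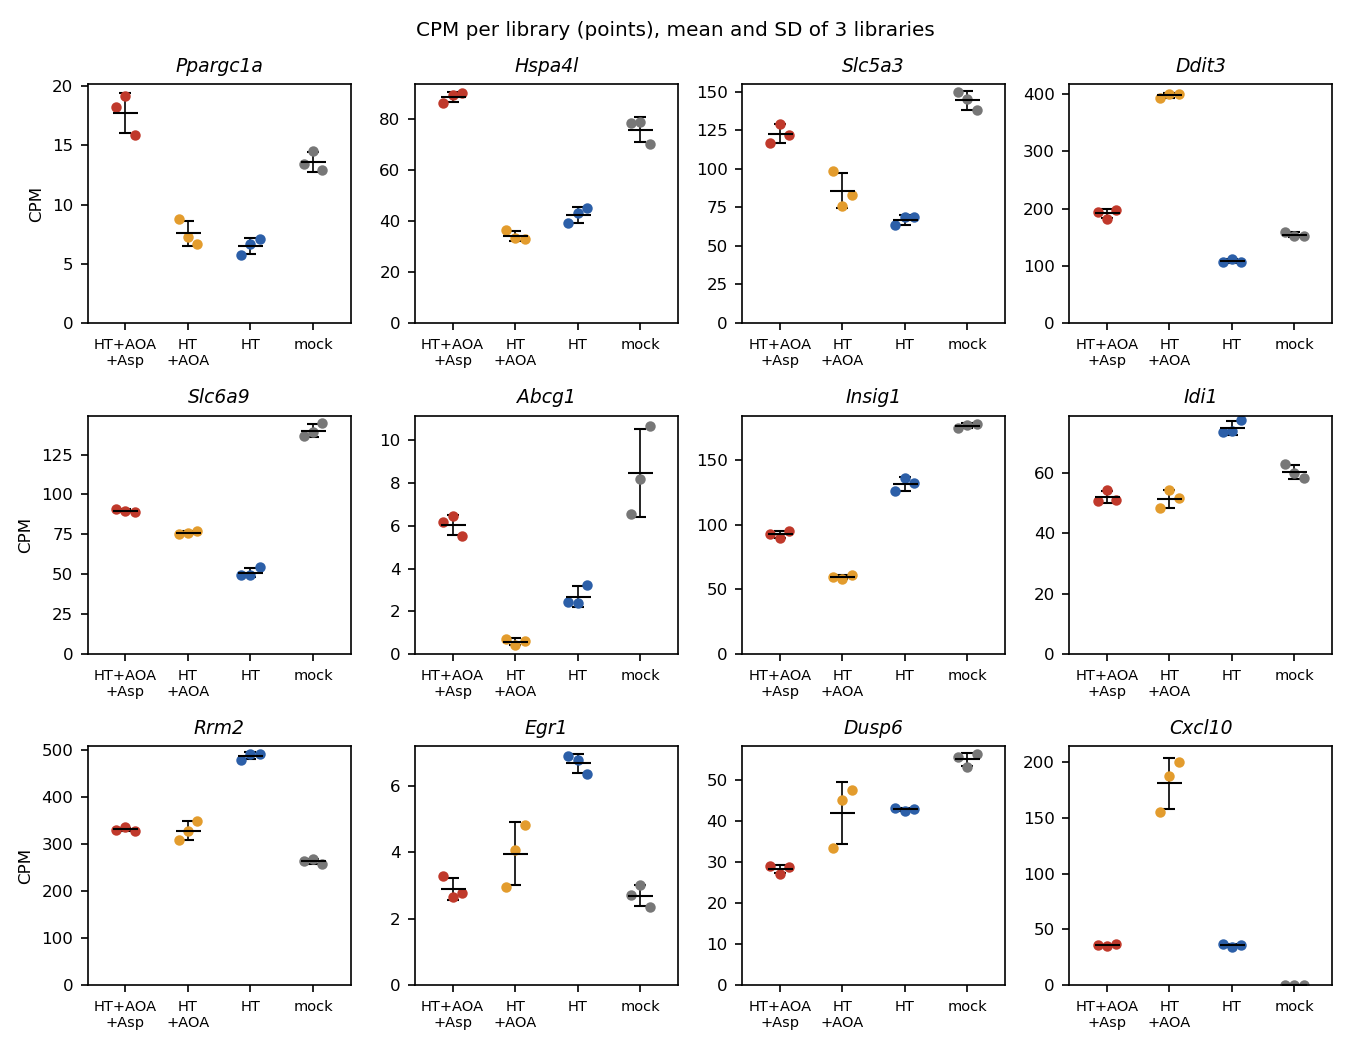
CPM of 12 genes in each library (points), with the mean and SD of 3 libraries, in cells with HT-DNA, AOA and Asp, with HT-DNA and AOA, with HT-DNA, and in mock cells; each panel has its own axis from 0. Ppargc1a, Hspa4l, Slc5a3, Ddit3, Slc6a9 and Abcg1 lay higher with both compounds than with HT-DNA alone, Insig1, Idi1, Rrm2, Egr1 and Dusp6 lower, and Cxcl10 overlapped at 35.3 to 36.4 and 34.2 to 36.9 CPM.

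Genes of the osmotic stress response, which is run by the transcription factor NFAT5 and brings organic osmolytes into the cell, included the rises of Hspa4l and Slc5a3. Of 26 list members, 20 passed the filter, and of these 5 rose, 2 fell and 13 were not called, with a median log2 fold change of 0.08 against 0.00 over all genes. Of all genes tested, 10.4% rose and 8.15% fell. This and the other gene lists were chosen with earlier results of these data known, so their shares are no independent support. Only 1 fall of this list was called on leaving out any 1 library. Hspa4l, a chaperone of the HSP110 family, had 86.6, 89.6 and 90.3 CPM with both compounds and 39.2, 43.2 and 45.3 CPM with HT-DNA alone. All HT-DNA+AOA+Asp libraries lay above all HT-DNA libraries, and above the HT-DNA+AOA (32.9 to 36.4 CPM) and mock libraries (70.5 to 79.1 CPM) as well (edgeR log2 fold change 1.06 ± 0.06 SE, adjusted p = 1.75e-10). Slc5a3, which takes up the osmolyte myo-inositol, had 117, 129 and 122 CPM with both compounds and 63.3, 68.5 and 68.7 CPM with HT-DNA alone (edgeR log2 fold change 0.88 ± 0.07 SE, adjusted p = 2.17e-06). It too stood above the HT-DNA+AOA libraries, at 75.8 to 98.5 CPM, but below mock at 138 to 149.6 CPM. The amino acid transporter Slc38a2 had a log2 fold change of 0.23 and the taurine transporter Slc6a6 one of 0.20. Nfat5 itself had 116, 120.0 and 117 CPM with both compounds and 81.6, 87.1 and 105 CPM with HT-DNA alone and was not called (edgeR log2 fold change 0.37 ± 0.13 SE, adjusted p = 0.0747). Sgk1, a kinase that regulates ion transport, fell (edgeR log2 fold change -0.43 ± 0.10 SE, adjusted p = 0.00509). Named from other lists, the heat shock gene Hspa1b rose (0.27) and Osgin1, an oxidative stress gene of the NRF2 list, fell (-0.25), on the log2 scale. Their calls were lost in 7 and 10 of 13 other settings, at adjusted p values of 0.0541 to 0.118 and 0.0505 to 0.166.

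ATF4 binds an amino acid response element near its target genes, which encode amino acid transporters, enzymes of serine, one-carbon and glutathione metabolism, tRNA synthetases and stress regulators. Of 49 listed entries in the table, 46 passed the filter, and of these 20 rose and none fell with both compounds (none lower also at an unadjusted p under 0.05 by edgeR, and none by DESeq2), with a median log2 fold change of 0.12. Among all genes 10.4% rose and 8.15% fell. Without single libraries, 15 to 19 members rose, and 1 fell without HT-DNA replicate 3. The promoters of Chac1, Slc7a11 and Asns are shown because they hold the element, and because the first 2 genes rose while Asns did not change detectably. They run from 250 bases before to 50 after the start, from RefSeq's GRCm38.p6, with matches to TGATGNAA on either strand in capitals.
Chac1 (chr2:119350992-119351291, + strand): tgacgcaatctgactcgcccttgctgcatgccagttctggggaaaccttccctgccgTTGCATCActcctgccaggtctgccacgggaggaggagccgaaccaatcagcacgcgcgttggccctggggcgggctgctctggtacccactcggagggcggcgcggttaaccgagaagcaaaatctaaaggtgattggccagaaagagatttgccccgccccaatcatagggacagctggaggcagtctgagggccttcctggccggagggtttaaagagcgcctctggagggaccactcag
Slc7a11 (chr3:50443564-50443863, - strand): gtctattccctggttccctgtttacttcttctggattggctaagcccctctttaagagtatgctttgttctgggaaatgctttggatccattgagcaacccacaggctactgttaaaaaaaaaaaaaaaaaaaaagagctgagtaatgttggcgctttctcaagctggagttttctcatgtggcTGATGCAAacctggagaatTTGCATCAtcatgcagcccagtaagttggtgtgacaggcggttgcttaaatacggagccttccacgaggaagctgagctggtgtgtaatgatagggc
Asns (chr6:7693160-7693459, - strand): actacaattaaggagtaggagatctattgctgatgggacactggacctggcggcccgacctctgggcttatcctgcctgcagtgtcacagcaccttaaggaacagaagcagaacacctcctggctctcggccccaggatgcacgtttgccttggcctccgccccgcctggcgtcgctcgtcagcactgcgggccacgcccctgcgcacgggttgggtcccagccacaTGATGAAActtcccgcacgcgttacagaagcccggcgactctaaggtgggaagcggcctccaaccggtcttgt
These letters occurred in 13 of the 38 tested list members that have a promoter in the RefSeq table, and in 8 of the 18 that rose. They occurred in 2.78% of 10027 tested genes and in 3.97% of all 32851 promoters of this length. Slc7a11 holds 2 matches, at -66 and -47 from its start, Chac1 1 at -193 and Asns 1 at -23. The windows of Ddit3 and Slc6a9 held none. A match describes the letters only. The genes were listed for their ties to ATF4 and the amino acid response, so these shares are no test of such a response. Nor is the share of members that rose, as the list was chosen with earlier results of these data known.

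Among the stress regulators, Ddit3, the transcription factor CHOP, had 194, 182 and 198 CPM with both compounds and 106, 113 and 106 CPM with HT-DNA alone. The groups were apart (edgeR log2 fold change 0.82 ± 0.04 SE, adjusted p = 9.93e-11), and Ddit3 was higher still with HT-DNA and AOA, at 393, 400.2 and 400.3 CPM. Mock cells, at 159, 152 and 152 CPM, lay between HT-DNA alone and both compounds. A second entry with the symbol Ddit3, at a lower level, also rose, with a log2 fold change of 1.15 (edgeR adjusted p = 0.0013). Chac1, an enzyme that degrades glutathione, had 47.1, 45.9 and 44.8 CPM with both compounds and 35.7, 32.9 and 29.7 CPM with HT-DNA alone (edgeR log2 fold change 0.48 ± 0.07 SE, adjusted p = 1.59e-04). Trib3, a pseudokinase that feeds back on ATF4 and CHOP, had 254, 251 and 249 CPM with both compounds and 202, 185 and 177 CPM with HT-DNA alone (edgeR log2 fold change 0.42 ± 0.05 SE, adjusted p = 2.29e-05). Neither gene's groups overlapped. Ppp1r15a, the phosphatase subunit that restores translation, had a log2 fold change of 0.53 (edgeR adjusted p = 0.0131), and Sesn2, a leucine sensor that restrains mTORC1, one of 0.32 (edgeR adjusted p = 1.94e-04). Atf4 had 725, 698 and 685 CPM with both compounds and 779, 753 and 713 CPM with HT-DNA alone. Its groups overlapped and it was not called (edgeR log2 fold change -0.09 ± 0.05 SE, adjusted p = 0.18).

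Several transporters of the list rose. Slc6a9, the glycine transporter GlyT1, had 90.5, 89.7 and 88.7 CPM with both compounds and 49.4, 49.4 and 54.3 CPM with HT-DNA alone. All libraries with both compounds were above the HT-DNA libraries and above HT-DNA with AOA (74.99 to 76.8 CPM), and below mock (137 to 145 CPM) (edgeR log2 fold change 0.81 ± 0.05 SE, adjusted p = 2.93e-10). Slc7a11, the cystine-glutamate exchanger, had 41.8, 41.8 and 40.8 CPM with both compounds and 31.1, 30.9 and 34.4 CPM with HT-DNA alone (edgeR log2 fold change 0.37 ± 0.07 SE, adjusted p = 0.00161). It had 11.3, 15.1 and 13.4 CPM with HT-DNA and AOA, below both. Over the whole list of amino acid transporters, 23 of 33 passed the filter, 8 rose and 2 fell, where 10.4% and 8.15% of all genes did. Of the rises, 5 were also members of the ATF4 list, and the remaining ones were those of Slc38a7 (0.39), Slc36a1 (0.18) and Slc6a6 (0.20), on the log2 scale. The 2 falls, Slc38a4 and Slc43a2, had adjusted p values of 0.0274 and 0.0488, and neither was called without HT-DNA+AOA+Asp replicate 1 or 2 or HT-DNA replicate 1 or 2. The plasma membrane carriers of aspartate and glutamate Slc1a1, Slc1a2 and Slc1a3 were below the filter, with 17, 12 and 5 counts over the 12 libraries.

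Of the enzymes, Aldh1l2, a mitochondrial folate dehydrogenase, had 339, 330.1 and 352 CPM with both compounds and 212, 226 and 263 CPM with HT-DNA alone, without overlap (edgeR log2 fold change 0.54 ± 0.07 SE, adjusted p = 4.89e-05). The tRNA synthetases Aars, Iars and Eprs had log2 fold changes of 0.16, 0.16 and 0.13. Asns, which makes asparagine from aspartate, had 336, 322 and 334 CPM with both compounds and 340.2, 331 and 318 CPM with HT-DNA alone. Its groups overlapped (edgeR log2 fold change 0.00 ± 0.04 SE, adjusted p = 0.981). In the list of the malate-aspartate shuttle and aspartate use, 19 of 24 members passed, none rose (1 at an unadjusted p under 0.05 by edgeR, none by DESeq2) and 2 fell, with 4 falls without HT-DNA replicate 3. The shares over all genes were 10.4% higher and 8.15% lower. Got1 had 128, 125 and 132 CPM with both compounds and 139, 135 and 132 CPM with HT-DNA alone (edgeR log2 fold change -0.08 ± 0.05 SE, adjusted p = 0.254). Got2 had 359, 362 and 357 CPM with both compounds and 377, 360.4 and 348 CPM with HT-DNA alone (edgeR log2 fold change -0.01 ± 0.04 SE, adjusted p = 0.899). Neither was called. The 2 falls were Umps (edgeR log2 fold change -0.21 ± 0.04 SE, adjusted p = 0.0011) and Adsl (edgeR log2 fold change -0.20 ± 0.05 SE, adjusted p = 0.00509), enzymes of pyrimidine and purine synthesis. Among 24 tested aminotransferases and other pyridoxal phosphate enzymes, 4 rose and 5 fell, with 3 falls without HT-DNA+AOA+Asp replicate 1 and 2 without its replicate 2 or 3 or HT-DNA replicate 2. Hdc, which makes histamine, had 2.71, 3.44 and 3.02 CPM with both compounds and 4.75, 4.69 and 6.70 CPM with HT-DNA alone (edgeR log2 fold change -0.81 ± 0.18 SE, adjusted p = 0.00294). Its groups were apart, and mock cells had 0.0888 to 0.271 CPM. Alas1, the first enzyme of heme synthesis, rose (edgeR log2 fold change 0.49 ± 0.06 SE, adjusted p = 1.66e-05).

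Sterol and fatty acid synthesis held the highest share of falls of any list, though the lists were chosen with earlier results of these data known. The synthesis genes are switched on by SREBP transcription factors when membrane cholesterol is low, and Insig1 holds SREBP back. The list also holds the cholesterol exporters Abcg1 and Abca1, which are described below. Of 41 members 37 passed the filter, and of these 22 fell, 2 rose and 13 were not called, with a median log2 fold change of -0.21. Among all genes 8.15% fell and 10.4% rose. Leaving out any 1 library left 19 to 21 members called lower. The promoters of Hmgcs1 and Msmo1, which both fell, are shown because they hold a sterol element, TCACNCCA on either strand, in capitals.
Hmgcs1 (chr13:119690101-119690400, + strand): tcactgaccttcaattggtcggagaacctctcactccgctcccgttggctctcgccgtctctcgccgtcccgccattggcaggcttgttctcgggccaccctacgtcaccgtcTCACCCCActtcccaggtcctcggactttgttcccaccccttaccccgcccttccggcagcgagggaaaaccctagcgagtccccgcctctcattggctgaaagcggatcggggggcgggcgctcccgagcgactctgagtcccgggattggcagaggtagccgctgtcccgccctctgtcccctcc
Msmo1 (chr8:64733529-64733828, - strand): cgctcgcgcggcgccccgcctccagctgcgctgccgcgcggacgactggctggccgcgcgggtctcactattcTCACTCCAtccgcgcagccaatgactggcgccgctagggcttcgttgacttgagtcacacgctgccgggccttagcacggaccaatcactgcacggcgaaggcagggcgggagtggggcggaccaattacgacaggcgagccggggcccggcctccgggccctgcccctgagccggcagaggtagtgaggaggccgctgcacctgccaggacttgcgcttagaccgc
The letters occurred in 3 of the 28 tested members with a promoter in the table, Hmgcs1, Msmo1 and Srebf2, all among the 16 that fell. They occurred in 4.54% of tested genes and 4.36% of all promoters. As the genes were listed for this pathway, these shares are no test either. No match of a printed promoter to one of the 2 motifs overlapped a match to the other.

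Idi1, which interconverts the isoprenoid building blocks, had 50.6, 54.2 and 51.04 CPM with both compounds and 73.4, 73.96 and 77.6 CPM with HT-DNA alone. The groups were apart (edgeR log2 fold change -0.53 ± 0.05 SE, adjusted p = 1.29e-06), and the level with both compounds was not called different from that with HT-DNA and AOA (edgeR adjusted p = 0.848). Insig1 had 92.7, 89.6 and 95.1 CPM with both compounds and 126, 136 and 132 CPM with HT-DNA alone (edgeR log2 fold change -0.51 ± 0.04 SE, adjusted p = 2.06e-07). The libraries with both compounds lay between those with HT-DNA and AOA, at 57.6 to 61.04 CPM, and those with HT-DNA alone. Hmgcs1, at the entry to the mevalonate pathway, had 44.01, 45.8 and 44.1 CPM with both compounds and 51.8, 60.00 and 57.5 CPM with HT-DNA alone (edgeR log2 fold change -0.34 ± 0.06 SE, adjusted p = 3.40e-04). The mevalonate decarboxylase Mvd, the lanosterol demethylase Cyp51 and Msmo1 had log2 fold changes of -0.49, -0.44 and -0.41.

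The 2 risers of this list were the cholesterol exporters Abcg1 and Abca1, which are targets of the sterol sensor LXR. Abcg1 had 6.17, 6.44 and 5.51 CPM with both compounds and 2.43, 2.38 and 3.25 CPM with HT-DNA alone, without overlap (edgeR log2 fold change 1.18 ± 0.18 SE, adjusted p = 1.47e-04). With HT-DNA and AOA it had 0.698, 0.423 and 0.632 CPM, and in mock cells 6.57, 8.17 and 10.6 CPM. Abca1 had 85.1, 89.9 and 90.4 CPM with both compounds and 67.4, 65.7 and 73.7 CPM with HT-DNA alone (edgeR log2 fold change 0.36 ± 0.06 SE, adjusted p = 2.49e-04). For both genes the level with AOA lay below HT-DNA and the level with both compounds above it. In the list of PGC-1 and PPAR targets, 4 of 21 tested members rose and 4 fell, where 10.4% and 8.15% of all genes did. Besides Ppargc1a, the lipid phosphatase Lpin1 rose (edgeR log2 fold change 0.58 ± 0.11 SE, adjusted p = 8.93e-04), and Angptl4, an inhibitor of lipoprotein lipase, fell. Angptl4 had 37.7, 40.2 and 38.95 CPM with both compounds and 73.7, 72.3 and 68.2 CPM with HT-DNA alone, with the groups apart (edgeR log2 fold change -0.88 ± 0.07 SE, adjusted p = 1.42e-07).

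Lysosomal and autophagy genes gave mostly small rises among their calls, where 10.4% of all genes rose and 8.15% fell. Of 43 lysosome genes tested, 11 rose and none fell (none lower also at an unadjusted p under 0.05 by edgeR, and none by DESeq2), with a median log2 fold change of 0.07. Mcoln1, the calcium channel of the lysosomal membrane, had 13.5, 14.9 and 11.6 CPM with both compounds and 10.4, 8.96 and 8.80 CPM with HT-DNA alone. The groups did not overlap (edgeR log2 fold change 0.49 ± 0.10 SE, adjusted p = 0.00145). Npc1, which exports cholesterol from the lysosome, had 65.7, 66.8 and 67.2 CPM with both compounds and 52.7, 52.2 and 56.4 CPM with HT-DNA alone (edgeR log2 fold change 0.31 ± 0.06 SE, adjusted p = 5.93e-04). The hydrolases Idua and Fuca1 had log2 fold changes of 0.38 and 0.31, and Tfeb, a transcription factor for lysosomal genes, was not called (edgeR log2 fold change -0.07 ± 0.09 SE, adjusted p = 0.637). Without HT-DNA+AOA+Asp replicate 3 the lysosomal rises numbered 6, and without HT-DNA replicate 2 they numbered 7. Among 35 autophagy genes 7 rose and 1 fell, led by the lipid transfer protein Atg2a (edgeR log2 fold change 0.37 ± 0.06 SE, adjusted p = 1.39e-04) and the cargo receptor Nbr1 (edgeR log2 fold change 0.35 ± 0.05 SE, adjusted p = 8.61e-05). The autophagy rises numbered 4 without HT-DNA+AOA+Asp replicate 2 and 4 without HT-DNA replicate 2.

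**Figure D3:**
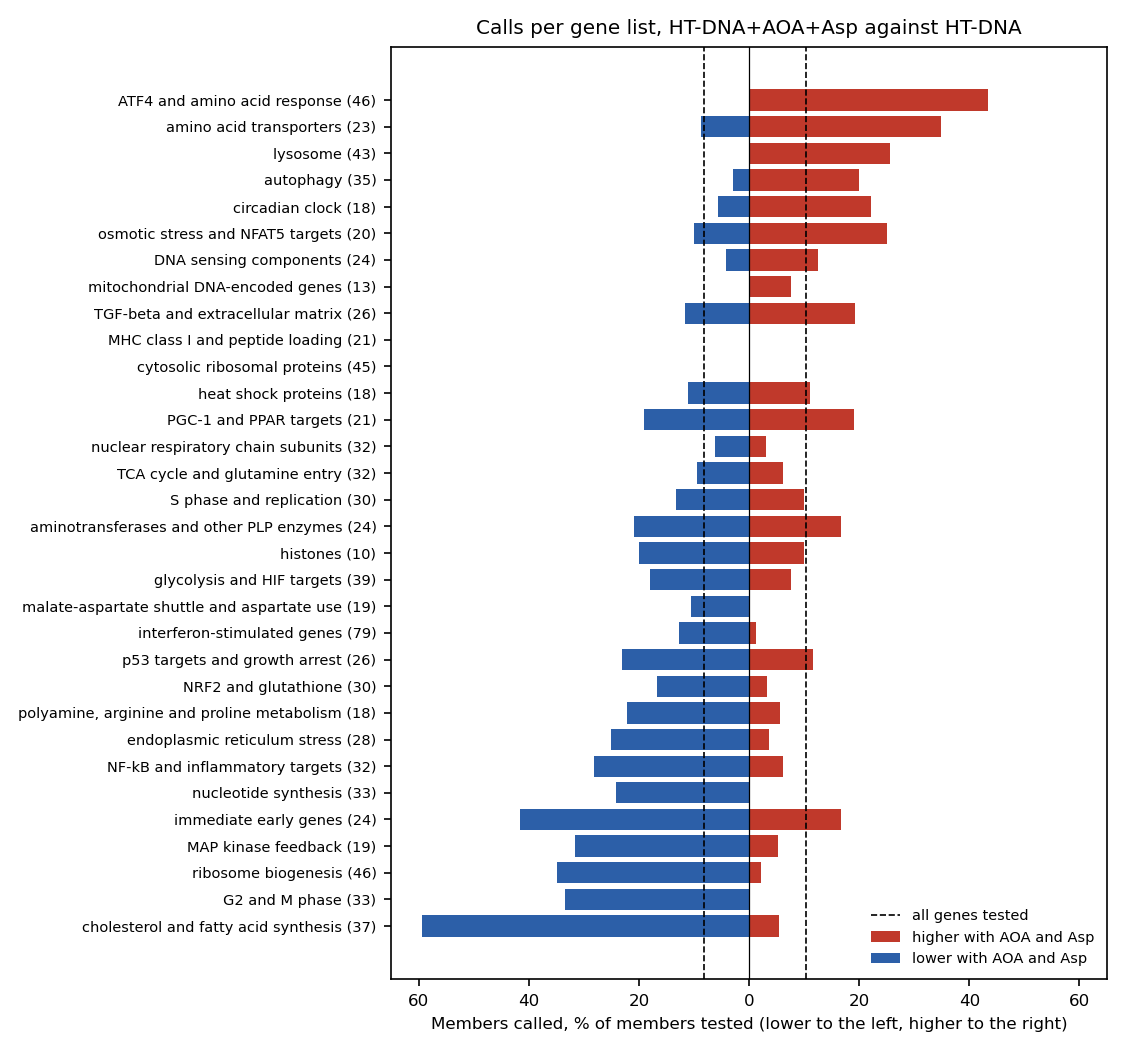
Share of the tested members of 32 gene lists that were called higher (red, to the right) or lower (blue, to the left) with HT-DNA, AOA and Asp against HT-DNA, in percent, with the number of tested members in brackets; lists with fewer than 10 tested members are left out. Dashed lines mark the shares over all genes, 10.4% higher and 8.15% lower. The ATF4 list reaches farthest to the right and the cholesterol and fatty acid list farthest to the left, while no cytosolic ribosomal protein or MHC class I gene was called. The lists were chosen with earlier results of these data known, so their order is no independent support.

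Among genes of the response to DNA, the chemokines Cxcl10 and Ccl5 were not called between both compounds and HT-DNA alone, while some interferon-stimulated and inflammatory genes fell. Ifnb1 had no count in any of these 6 libraries, and none of the 20 interferon genes listed passed the filter. Cxcl10, a chemokine of the interferon response, had 35.5, 35.3 and 36.4 CPM with both compounds and 36.9, 34.2 and 35.7 CPM with HT-DNA alone. The groups overlapped (edgeR log2 fold change 0.01 ± 0.08 SE, adjusted p = 0.964), while HT-DNA with AOA gave 155, 188 and 199.8 CPM. Ccl5, another chemokine, had 24.3, 23.01 and 22.5 CPM with both compounds and 25.7, 24.6 and 23.7 CPM with HT-DNA alone (edgeR log2 fold change -0.09 ± 0.07 SE, adjusted p = 0.444). Of 79 interferon-stimulated genes tested, 10 fell, 1 rose and 68 were not called, with a median log2 fold change of -0.13, where 8.15% of all genes fell and 10.4% rose. At an unadjusted p under 0.05 by edgeR, 24 of the 79 were lower and 6 higher. Against HT-DNA with AOA, 65 of the 79 fell and 5 rose with both compounds, where 26.4% and 28.3% of all genes did.

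The falls below HT-DNA alone were of modest size. Isg15, a ubiquitin-like modifier, had 32.1, 28.7 and 30.7 CPM with both compounds and 37.3, 41.8 and 35.6 CPM with HT-DNA alone. All HT-DNA+AOA+Asp libraries were lower (edgeR log2 fold change -0.33 ± 0.07 SE, adjusted p = 0.00338). Rtp4, an interferon-induced chaperone of receptors, had 17.3, 14.9 and 17.97 CPM with both compounds and 22.6, 21.2 and 20.9 CPM with HT-DNA alone (edgeR log2 fold change -0.37 ± 0.08 SE, adjusted p = 0.00381). Apol9b, of the apolipoprotein L family, had 26.8, 26.2 and 27.9 CPM with both compounds and 36.1, 36.9 and 34.9 CPM with HT-DNA alone (edgeR log2 fold change -0.42 ± 0.07 SE, adjusted p = 1.83e-04). Both stood apart without overlap, although Apol9b shares sequence with Apol9a, so their counts are uncertain. Ifit1, an antiviral RNA-binding protein, had 56.7, 52.3 and 62.7 CPM with both compounds and 60.9, 68.8 and 65.2 CPM with HT-DNA alone, with overlap, and was not called (edgeR log2 fold change -0.18 ± 0.07 SE, adjusted p = 0.0584). Ifit1 was called without HT-DNA+AOA+Asp replicate 3 or HT-DNA replicate 1, at edgeR adjusted p values of 0.021 and 0.0404, and also under RLE size factors (0.0493), without a filter (0.0149) and by DESeq2 (0.0482). Stat2, which carries the interferon signal to the nucleus, was the riser: it had 52.2, 47.7 and 54.1 CPM with both compounds and 38.9, 41.1 and 39.9 CPM with HT-DNA alone, without overlap (edgeR log2 fold change 0.36 ± 0.06 SE, adjusted p = 3.04e-04). The 10 falls of this list became 6 without HT-DNA+AOA+Asp replicate 1 and 4 without its replicate 2, and the rises were 3 without HT-DNA replicate 3.

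Sensors and inflammatory genes gave a mixed picture, to be read beside the 10.4% of all genes that rose and the 8.15% that fell. Cgas had 5.29, 5.85 and 6.12 CPM with both compounds and 5.29, 6.23 and 6.85 CPM with HT-DNA alone (edgeR log2 fold change -0.08 ± 0.13 SE, adjusted p = 0.724). Sting1 had 5.99, 5.65 and 5.96 CPM with both compounds and 5.93, 5.96 and 5.35 CPM with HT-DNA alone (edgeR log2 fold change 0.03 ± 0.12 SE, adjusted p = 0.902). Both overlapped between the groups. Of 24 tested genes of DNA sensing, 3 rose and 1 fell: Dnase2a, the lysosomal nuclease that digests DNA (edgeR log2 fold change 0.34 ± 0.07 SE, adjusted p = 0.00138), Rnf5 (0.29) and Irf3 (0.20) rose, and Ikbke (-0.24) fell. The fall of Ikbke was not called without HT-DNA+AOA+Asp replicate 1 (edgeR adjusted p = 0.0976) or without HT-DNA replicate 2 (0.0644) or 3 (0.0716). Of 32 NF-kB and inflammatory targets, 9 fell and 2 rose, with a median log2 fold change of -0.15. Log2 fold changes of the members tested ran from -0.73 to 0.86, and the genes named here are falls. Cxcl1, a neutrophil chemokine, had 109, 97.8 and 105 CPM with both compounds and 154, 151 and 153 CPM with HT-DNA alone (edgeR log2 fold change -0.56 ± 0.11 SE, adjusted p = 0.00844). All HT-DNA+AOA+Asp libraries lay lower, and below mock at 147 to 167 CPM. Relb, an NF-kB subunit, and Zc3h12a, an RNase that limits inflammatory transcripts, fell, with log2 fold changes of -0.59 and -0.46. The count of falls was 5 without HT-DNA replicate 1 and 5 without HT-DNA replicate 2, and 1 gene rose without HT-DNA+AOA+Asp replicate 3 or HT-DNA replicate 2 or 3.

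Among genes of growth factor signalling, more fell than rose, while 8.15% of all genes fell and 10.4% rose. Immediate early genes are transcription factors and regulators induced within minutes by MAP kinases, and dual-specificity phosphatases switch those kinases off again. Of 24 immediate early genes tested, 10 fell and 4 rose, with a median log2 fold change of -0.23. Egr1 had 3.27, 2.65 and 2.78 CPM with both compounds and 6.88, 6.77 and 6.35 CPM with HT-DNA alone. No library with both compounds reached the HT-DNA range (edgeR log2 fold change -1.20 ± 0.16 SE, adjusted p = 4.42e-05), while mock cells, at 2.71, 2.998 and 2.36 CPM, overlapped with both compounds. Ier2 had 13.8, 15.2 and 13.8 CPM with both compounds and 25.1, 23.6 and 20.6 CPM with HT-DNA alone (edgeR log2 fold change -0.70 ± 0.09 SE, adjusted p = 1.90e-05), and its level was not called different from HT-DNA with AOA (edgeR adjusted p = 0.685). Maff and Fosl1 had log2 fold changes of -0.60 and -0.46. Junb fell (edgeR log2 fold change -0.71 ± 0.16 SE, adjusted p = 0.0153), but was not called without HT-DNA+AOA+Asp replicate 1 (adjusted p = 0.0516) or 3 (0.0615) or HT-DNA replicate 1 (0.0638). The transcription factor Klf4 rose (edgeR log2 fold change 0.63 ± 0.14 SE, adjusted p = 0.00335), and the rises numbered 2 without HT-DNA replicate 3.

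Of 19 MAP kinase feedback genes, 6 fell and 1 rose, with a median log2 fold change of -0.20. Among all genes 8.15% fell and 10.4% rose. Dusp6, a phosphatase of ERK, had 28.9, 27.2 and 28.8 CPM with both compounds and 43.1, 42.4 and 43.1 CPM with HT-DNA alone. All libraries with both compounds lay below the HT-DNA libraries and below mock at 53.2 to 56.4 CPM (edgeR log2 fold change -0.60 ± 0.09 SE, adjusted p = 4.38e-04). Phlda1 had 22.5, 21.4 and 19.3 CPM with both compounds and 39.2, 37.9 and 34.9 CPM with HT-DNA alone (edgeR log2 fold change -0.83 ± 0.11 SE, adjusted p = 1.35e-04). Dusp5, another ERK phosphatase, fell (edgeR log2 fold change -0.74 ± 0.18 SE, adjusted p = 0.0191), but was not called without HT-DNA+AOA+Asp replicate 2 (adjusted p = 0.0572) or 3 (0.0739) or without HT-DNA replicate 1 (0.0787) or 2 (0.0678). The single rise, of Dusp16, was not called without HT-DNA replicate 2.

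Outside the lists, the largest falls by the naming rule included the kinase Pim3, the potassium channel Kcnk2, the sphingosine phosphate receptor S1pr3 and the peptide ligand Apln. Pim3, a survival kinase, had 65.6, 58.6 and 56.8 CPM with both compounds and 107, 108 and 95.9 CPM with HT-DNA alone (edgeR log2 fold change -0.79 ± 0.10 SE, adjusted p = 4.76e-04). Kcnk2 had 10.6, 11.01 and 9.72 CPM with both compounds and 19.2, 16.5 and 18.2 CPM with HT-DNA alone (edgeR log2 fold change -0.79 ± 0.09 SE, adjusted p = 7.06e-06). Both were apart without overlap, as the naming rule required. S1pr3 had 14.6, 16.2 and 16.9 CPM with both compounds and 24.2, 25.5 and 29.9 CPM with HT-DNA alone (edgeR log2 fold change -0.73 ± 0.09 SE, adjusted p = 2.29e-05). Apln, which signals to the apelin receptor, had 19.5, 22.1 and 18.99 CPM with both compounds and 32.7, 31.04 and 32.6 CPM with HT-DNA alone (edgeR log2 fold change -0.67 ± 0.08 SE, adjusted p = 1.01e-05). For S1pr3 and Apln the level with both compounds was not called different from that with HT-DNA and AOA, with edgeR adjusted p values of 0.139 and 0.136. Tmem171 and the chondroitin sulfotransferase Chst13 had log2 fold changes of -0.74 and -0.81. The 4 falls of at least 2-fold at 5 CPM or more were those of Egr1, Gm21992, Rbm15b and Rps12l1. Rbm15b had 19.8, 23.5 and 19.6 CPM with both compounds and 54.1, 38.8 and 38.7 CPM with HT-DNA alone (edgeR log2 fold change -1.07 ± 0.27 SE, adjusted p = 0.0269), and its call was lost on leaving out any 1 library but HT-DNA replicate 3, at adjusted p values of 0.0523 to 0.0951. Rps12l1 (-1.02), a copy of a ribosomal protein gene whose reads can be split with its source, lost its call in 7 of 13 other settings. Gm21992 (-1.25, edgeR adjusted p = 0.0325) was named after its values were seen.

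**Figure D4:**
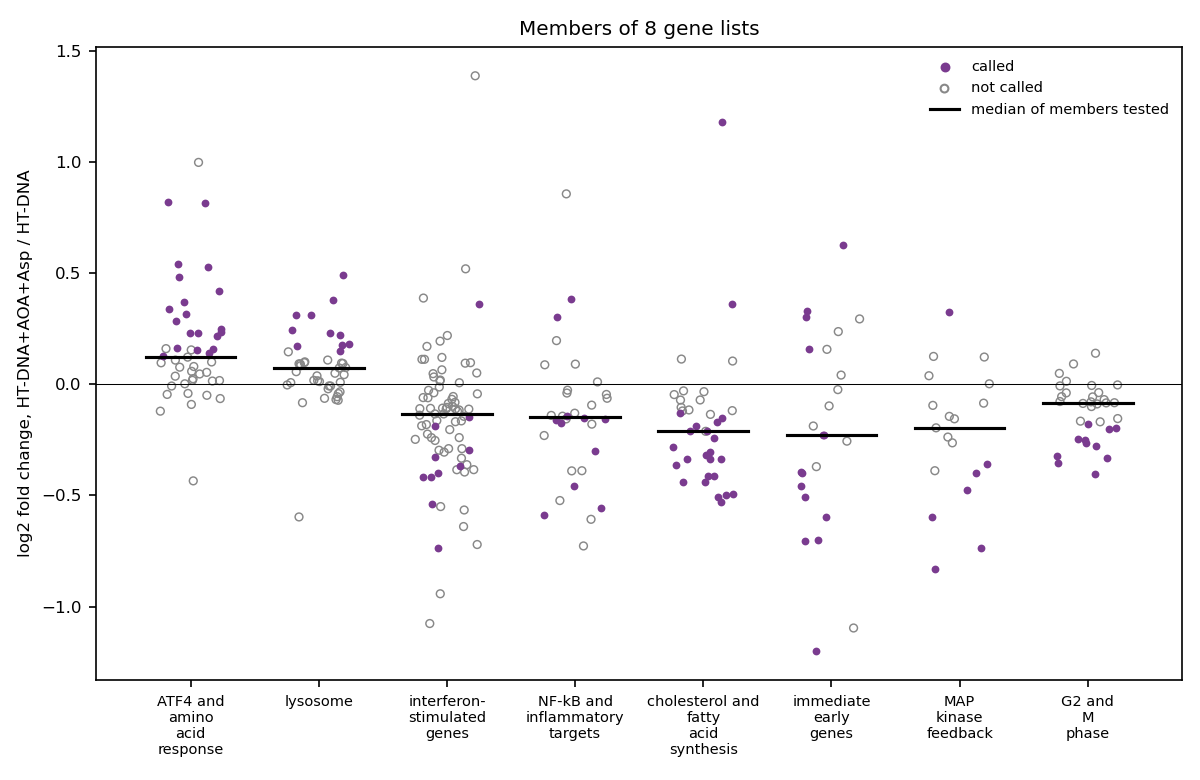
Log2 fold change of HT-DNA+AOA+Asp over HT-DNA for each tested member of 8 gene lists. Filled points were called, open points were not, and the bar is the median of the members, from 0.12 in the ATF4 list to -0.23 in the immediate early list. Every list also held many members that were not called.

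Among genes of growth and division the calls were mostly small falls, where 8.15% of all genes fell and 10.4% rose. Of 33 genes of G2 and M phase, 11 fell and none rose (none higher also at an unadjusted p under 0.05 by edgeR, and none by DESeq2), with a median log2 fold change of -0.09. Plk1, a mitotic kinase, had 140.3, 134 and 129 CPM with both compounds and 171, 176 and 168 CPM with HT-DNA alone, without overlap (edgeR log2 fold change -0.36 ± 0.05 SE, adjusted p = 2.29e-05). Cdk1, the kinase of mitotic entry, and Aurka, a spindle pole kinase, had log2 fold changes of -0.41 and -0.33. Of 30 genes of S phase, 4 fell and 3 rose, the largest fall being that of cyclin E1, Ccne1 (edgeR log2 fold change -0.44 ± 0.06 SE, adjusted p = 6.42e-05). Of 33 genes of nucleotide synthesis, 8 fell and none rose by edgeR (1 at an unadjusted p under 0.05, none by DESeq2). Rrm2, the inducible subunit of ribonucleotide reductase, had 331, 335 and 328 CPM with both compounds and 479, 492 and 492 CPM with HT-DNA alone. The groups were apart (edgeR log2 fold change -0.56 ± 0.04 SE, adjusted p = 3.42e-08), and HT-DNA with AOA gave 308, 328 and 348 CPM, which overlapped with both compounds (edgeR adjusted p = 0.828). Of 46 ribosome biogenesis genes, 16 fell and 1 rose, led by Utp18 (edgeR log2 fold change -0.26 ± 0.05 SE, adjusted p = 0.00134) and the RNA polymerase I subunit Polr1b (edgeR log2 fold change -0.26 ± 0.06 SE, adjusted p = 0.00246), but 9 fell without HT-DNA+AOA+Asp replicate 2 and 2 rose without HT-DNA replicate 3. None of the 45 cytosolic ribosomal protein genes was called by edgeR, none had an unadjusted p under 0.05, and none was called by DESeq2. Their log2 fold changes ran from -0.13 to 0.06, but 7 were called lower without HT-DNA replicate 3. Odc1, the first enzyme of polyamine synthesis, had 1143, 1112 and 1112 CPM with both compounds and 1462, 1454 and 1458 CPM with HT-DNA alone, without overlap (edgeR log2 fold change -0.38 ± 0.04 SE, adjusted p = 1.29e-06). For each gene named in this paragraph, the mean with both compounds lay between mock and HT-DNA alone, with mock the lowest. Mock means were 126 CPM for Plk1, 263 CPM for Rrm2 and 949 CPM for Odc1.

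Chaperone genes gave calls in both directions, as did all genes, of which 8.15% fell and 10.4% rose. Of 28 genes of endoplasmic reticulum stress, 7 fell and 1 rose, and 4 fell without HT-DNA+AOA+Asp replicate 2. Manf, a secreted factor of the unfolded protein response, had 447, 419 and 434 CPM with both compounds and 555, 527 and 543 CPM with HT-DNA alone, without overlap (edgeR log2 fold change -0.32 ± 0.04 SE, adjusted p = 2.06e-05). Creld2 fell too (edgeR log2 fold change -0.38 ± 0.05 SE, adjusted p = 3.09e-05), whereas the stress sensor Ern1, which is IRE1, rose (edgeR log2 fold change 0.41 ± 0.06 SE, adjusted p = 8.26e-05). Of 18 heat shock genes, 2 rose and 2 fell, and 1 rose on leaving out any 1 library but HT-DNA replicate 1. Hspa8, the constitutive cytosolic HSP70, had 1936, 1902 and 1879 CPM with both compounds and 2798, 2621 and 2536 CPM with HT-DNA alone (edgeR log2 fold change -0.48 ± 0.06 SE, adjusted p = 2.26e-05), opposite in sign to Hspa4l. Of 30 NRF2 and glutathione genes, 5 fell and 1, Slc7a11, rose, and 2 fell on leaving out any 1 library but HT-DNA replicate 3. Txnrd1, thioredoxin reductase, had 326, 324 and 327 CPM with both compounds and 401, 412 and 413 CPM with HT-DNA alone, without overlap (edgeR log2 fold change -0.33 ± 0.04 SE, adjusted p = 1.14e-05). Mock means of Manf, Creld2, Hspa8 and Txnrd1, at 403, 285, 1476 and 268 CPM, were below the means of both groups. Those of Ern1, Slc7a11 and Hspa4l, at 65.1, 41.4 and 76.0 CPM, lay between them.

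Lists of central metabolism, growth arrest and the clock are given here beside the shares of all genes, of which 8.15% fell and 10.4% rose. Of 39 glycolysis and HIF targets 7 fell and 3 rose, of 32 genes of the TCA cycle and glutamine entry 3 fell and 2 rose, and of 32 nuclear respiratory chain genes 2 fell and 1 rose. The glycolysis falls numbered 3 without HT-DNA+AOA+Asp replicate 1 and 4 without its replicate 3 or HT-DNA replicate 1 or 2. In the TCA list 1 fell and none rose without HT-DNA+AOA+Asp replicate 3, and 1 rose without its replicate 2 or without any 1 HT-DNA library. No respiratory chain gene fell without HT-DNA+AOA+Asp replicate 2 or 3 or HT-DNA replicate 1 or 2, and none rose without HT-DNA+AOA+Asp replicate 3 or HT-DNA replicate 1. Glul, glutamine synthetase, had 114, 114 and 119 CPM with both compounds and 138, 147 and 141 CPM with HT-DNA alone, without overlap (edgeR log2 fold change -0.29 ± 0.04 SE, adjusted p = 1.18e-04). Pfkfb4, which sets a regulator of glycolysis, and the enolase Eno2 had log2 fold changes of 0.31 and 0.31, and the kinase Pdk1, which restrains pyruvate entry to mitochondria, one of -0.27. Of 13 mitochondrial genes 1 was called, mt-Cytb (edgeR log2 fold change 0.19 ± 0.06 SE, adjusted p = 0.0383), a call lost without any 1 of these libraries but HT-DNA replicate 3, at adjusted p values of 0.0789 to 0.159, and 1 gene of the list was called lower without HT-DNA replicate 1. Of 26 p53 and growth arrest genes 6 fell and 3 rose. The falls, led by the polo-like kinase Plk2 (edgeR log2 fold change -0.44 ± 0.09 SE, adjusted p = 0.00206), numbered 3 without HT-DNA+AOA+Asp replicate 3 and 3 without HT-DNA replicate 1, and the rises 5 without HT-DNA+AOA+Asp replicate 2. Of 18 clock genes 4 rose and 1 fell, with Per1, a repressor of the clock, in front (edgeR log2 fold change 0.35 ± 0.07 SE, adjusted p = 0.00133). The clock rises numbered 2 without HT-DNA+AOA+Asp replicate 1, and the fall was not called without its replicate 3 or HT-DNA replicate 3.

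Fibroblast and matrix genes moved in both directions, as did all genes, of which 10.4% rose and 8.15% fell. Of the 8 fibroblast markers tested, 3 rose, 1 fell and 4 were not called. Pdgfrb, a receptor for platelet-derived growth factor, had 234, 247 and 245 CPM with both compounds and 159, 167 and 169 CPM with HT-DNA alone. The groups were far apart (edgeR log2 fold change 0.56 ± 0.04 SE, adjusted p = 2.24e-08), and HT-DNA with AOA gave 124 to 128 CPM. Pdgfra and the collagen Col1a1 had log2 fold changes of 0.24 and 0.24, and the intermediate filament Vim fell (-0.20). Of 26 genes of TGF-beta and the matrix 5 rose and 3 fell, among them the growth factor Tgfb1 (edgeR log2 fold change -0.35 ± 0.06 SE, adjusted p = 4.33e-04) and the protease Mmp14 (edgeR log2 fold change -0.29 ± 0.04 SE, adjusted p = 1.46e-04). The matrix rises numbered 3 without HT-DNA+AOA+Asp replicate 2 or 3 or HT-DNA replicate 1 or 2. Of 10 histone genes 2 fell and 1 rose, a rise lost without any 1 library but HT-DNA+AOA+Asp replicate 3. Of 18 genes of polyamine, arginine and proline metabolism 4 fell and 1 rose, with 2 falls without any 1 HT-DNA+AOA+Asp library or without HT-DNA replicate 2, and 2 rises without HT-DNA+AOA+Asp replicate 1. None of the 21 genes of MHC class I and peptide loading was called by edgeR or DESeq2, and 1 was higher and 1 lower at an unadjusted p under 0.05 by edgeR. Their log2 fold changes ran from -0.45 to 0.19, and 1 was called higher and 1 lower without HT-DNA replicate 3.

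The same genes can be set beside the effect of AOA without Asp. HT-DNA+AOA differed from HT-DNA in 7646 genes (52%) by edgeR's test, 1139 (7.75%) of them at least 2-fold, and HT-DNA+AOA+Asp differed from HT-DNA+AOA in 8039 genes (54.7%), 1194 (8.13%) of them at least 2-fold. These comparisons share libraries with the one described here, so their errors are linked and their values are given side by side only. For Cxcl10 the log2 fold change over HT-DNA was 0.01 ± 0.08 SE with both compounds and 2.35 ± 0.07 SE with AOA. Ddit3 had 0.82 with both compounds and 1.87 with AOA, and Gadd45a 0.93 and 2.13. Plk1 had -0.36 with both compounds and -1.61 with AOA, and Insig1 -0.51 and -1.15.

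Some genes had, with both compounds, a level that was not called different from that with AOA. Idi1 had -0.53 with both compounds and -0.54 with AOA against HT-DNA on the log2 scale, and Rrm2 had -0.56 and -0.57. Neither was called between the groups with and without Asp, which does not show that the levels are equal. A second kind lay on the other side of HT-DNA from AOA, with each side called. Slco4a1 had 1.36 with both compounds and -1.73 with AOA, Abcg1 1.18 and -2.20, and Ndrg4 1.09 and -1.93. Hspa4l had 1.06 with both compounds and -0.31 with AOA, and an entry of the noncoding RNA Snhg4 0.85 and -0.62, with adjusted p values of 0.0118 and 0.044 by edgeR. Without HT-DNA+AOA+Asp replicate 2 this entry had an adjusted p of 0.0735, and a second entry named Snhg4 was on the same side in both comparisons, at 0.32 and 0.42. Yet other genes were called with both compounds but not with AOA. Ppargc1a had 1.45 with both compounds and 0.22 with AOA (edgeR adjusted p = 0.139), Angptl4 -0.88 and -0.04 (0.616), and Hdc -0.81 and -0.08 (0.697). The difference itself, HT-DNA+AOA+Asp against HT-DNA+AOA, was called for all 3, with log2 fold changes of 1.23, -0.83 and -0.72 and edgeR adjusted p values of 3.60e-09, 4.39e-09 and 0.00157.

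**Figure D5:**
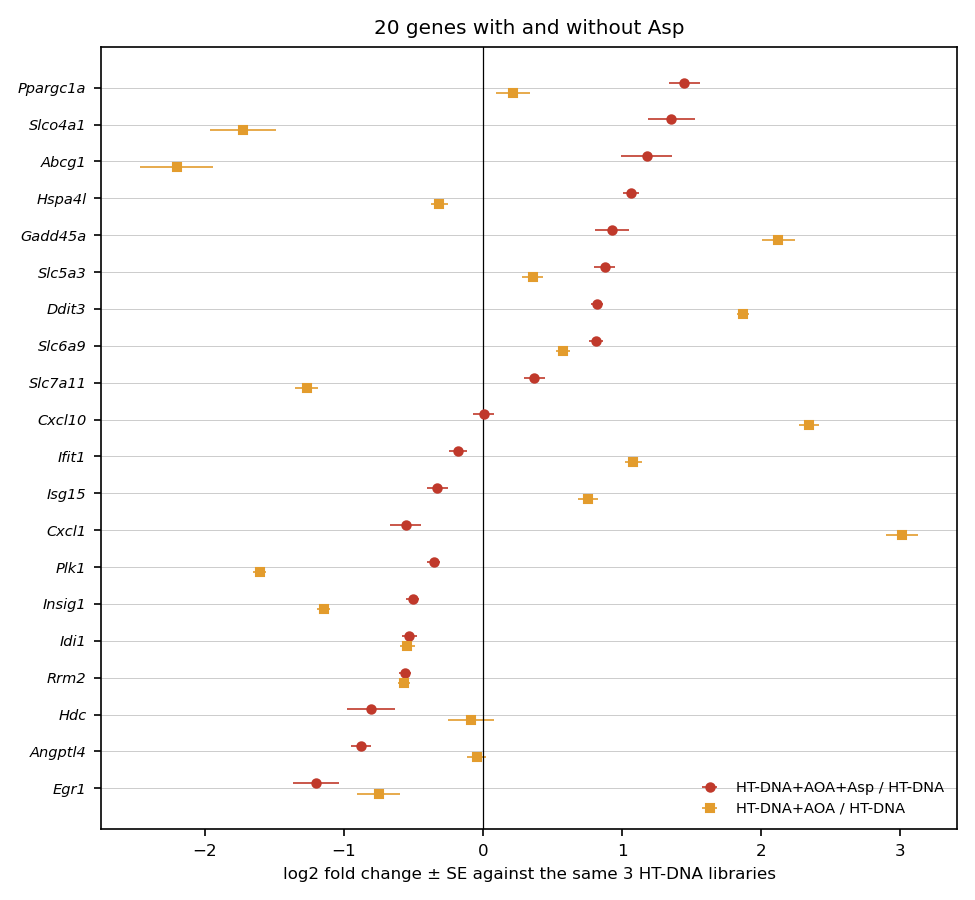
Log2 fold change with its SE for 20 genes, of HT-DNA+AOA+Asp over HT-DNA (red circles) and of HT-DNA+AOA over HT-DNA (orange squares), both against the same 3 HT-DNA libraries. Cxcl10 lies at 0.01 and 2.35, Idi1 at -0.53 and -0.54, and Abcg1 at 1.18 and -2.20.

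Gene lists gave the same kinds of values. In the ATF4 list, 20 members rose and none fell with both compounds, and 37 rose and 4 fell with AOA, each against HT-DNA, with medians of 0.12 and 0.34 on the log2 scale. In cholesterol and fatty acid synthesis, 2 rose and 22 fell with both compounds, and none rose and 31 fell with AOA, with medians of -0.21 and -0.53. In the interferon list, 1 rose and 10 fell with both compounds, and 64 rose and 7 fell with AOA, with medians of -0.13 and 0.99. In G2 and M phase, none rose and 11 fell with both compounds, and none rose and 33 fell with AOA, with medians of -0.09 and -0.76. In the endoplasmic reticulum list, 1 rose and 7 fell with both compounds, and 3 rose and 25 fell with AOA, with medians of -0.08 and -0.55. Over all genes, 10.4% rose and 8.15% fell with both compounds, and 25.5% rose and 26.5% fell with AOA.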

How the data were processed

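Per the labels' protocols, cells were lysed in TRIzol for RNA and Majorbio did the sequencing. The authors deposited estimated counts per gene for 12 libraries, of which 14.4% to 16.6% of the values in a library are not whole, as the values in the table show. No aligner, counting tool, strand setting or genome build is named in the sources used here, so overlapping and antisense genes cannot be told apart. The table holds 56287 entries, 55414 with an Ensembl identifier and 873 assembled loci, and its group means equal the means of the library columns within 3.3e-05.

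The estimated counts were rounded to whole numbers, which changed no value by more than 0.5, and entries were kept by edgeR's filterByExpr with a minimum count of 10 and a minimum total of 15. All 12 libraries, with 19944571 to 27309291 counts each, were fitted together with TMM factors by edgeR 4.0.16's robust quasi-likelihood test (limma 3.58.1, R 4.3.3), which left 8 residual degrees of freedom and a common biological coefficient of variation of 0.0534. Adjusted p-values are Benjamini-Hochberg values over all 14694 genes, called under 0.05. CPM values were computed from these counts with edgeR on the TMM-scaled library sizes, and are not per gene length, so levels of different genes are not compared. The code was tested on simulated data. Replicate libraries of a group differed by more than sampling noise, so none was merged.

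The 111 named genes followed a rule: among called genes of at least 5 CPM in the higher group, with groups that do not overlap and an ordinary symbol, the 12 largest rises and falls, the 3 largest changes in each list, and smaller sets set by their level in HT-DNA+AOA cells, with the DNA-sensing and aspartate genes that the design points to. Further list members are named as examples of a role. The members and the 37 gene lists were chosen with earlier results of these data known. Other scalings, filters, sample sets, a replicate block, DESeq2 1.42.0, a test against a minimum fold and the omission of single libraries were tried as alternatives.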

Additional observations from a re-analysis of the deposited data

How the results depend on the processing

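Of 103 named genes that were called, 80 kept their call in all 13 alternatives other than the test against a minimum fold, and 23 lost it in at least 1. No called gene changed sign under any alternative in which it was tested. The total of 2719 calls was 2729 with RLE size factors, 2703 with library size alone, 2836 without a filter, 2655 by DESeq2, 3197 when the fit held only these 2 groups and 2796 under a 1 CPM filter. Leaving out single libraries gave 1689 to 2889 calls, 952 to 1603 of them higher and 726 to 1286 lower. At least 2-fold, it gave 34 to 65 higher and 23 to 40 lower. The test against a fold of 1.2 called 142 genes, 100 higher and 42 lower, of which 15 and 7 were at least 2-fold. The 52 genes at least 2-fold higher became 30 with the 1 CPM filter and 22 by DESeq2, and the 31 lower became 71 without a filter and 19 by DESeq2. DESeq2 gave no adjusted p for 2279 of the 14694 genes, so it could not call these. The share of higher calls was 51.4% to 58% across the alternatives other than the test against a fold, which gave 70.4%, against 56% as reported.

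With replicate number as a block, 2248 genes were called, 2229 of them among the 2719. Same-numbered libraries of the 2 groups deviated together by correlations of 0.0391, 0.0456 and 0.013. Those of different-numbered libraries ran from -0.063 to 0.024. The same-numbered values were all positive but small, so the numbers are not taken to pair the samples.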
